A study of Homo sapiens with 6 samples.

Results

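The genes described here are 35 genes of homologous recombination, of the Fanconi anemia pathway and of the checkpoint signalling that acts with them, out of 11048 gene symbols measured in MM1.S cells. They were taken by name, with earlier results of these data known, and all 35 had a value in each of the 6 libraries. MM1.S, derived from human multiple myeloma, is here 1 cell line grown in RPMI-1640 with serum, and its mRNA was sequenced after 6 h with the DMSO vehicle, with 3 µM CCF642 or with 3 µM CCF642-34, from 2 libraries per group. CCF642 is a small molecule inhibitor of the protein disulfide isomerase PDIA1 (gene P4HB), and CCF642-34 is an analog of it that the study designed for better solubility and selectivity. No label says whether the 2 libraries of a group came from separate cultures. The p values therefore measure the spread between these libraries. For each gene that spread was taken largely from all genes together (42.9 prior and 3 residual degrees of freedom).

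Homologous recombination rebuilds a broken DNA molecule from its sister copy and therefore works mainly in the S and G2 phases of the cell cycle. The broken end is first cut back to expose a strand, which BRCA1, PALB2 and BRCA2 prepare for pairing, and XRCC and RAD54 proteins then help that strand to find and invade its partner. The Fanconi anemia proteins unhook links between the strands of DNA: a core complex attaches ubiquitin to the FANCD2 and FANCI pair, which calls in the same recombination proteins. The kinases ATM and ATR sense breaks and stalled replication forks and pass the signal on through CHEK2 and CHEK1.

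The values are CPM, the reads counted on a gene relative to the total of its library, after TMM scaling (a trimmed mean of the ratios between libraries), and fold changes are on the log2(TMM-scaled CPM + 1) scale, which understates changes of low genes. The libraries held 20567313 to 28459677 reads. Depth went with group: the CCF642-34 libraries held 28459677 and 27797578 reads, and no DMSO or CCF642 library held more than 22989979. The part of depth in the results was not tested. Replicates differed by more than read counting alone gives (a variance of 2.3 times that of counting in the DMSO pair, 4.64 in the CCF642 pair and 4.04 in the CCF642-34 pair). A gene was called when limma, fitted to all 3 groups and all 11048 genes, gave a Benjamini-Hochberg adjusted p under 0.05. All 10 plasma cell markers looked for (among them SDC1, PRDM1, IRF4 and XBP1) were listed, with a summed level of 9409 to 9492 TMM-scaled CPM with DMSO, 7295 to 7372 with CCF642 and 7932 to 8013 with CCF642-34. Of 4 markers each for B cells, T cells, myeloid and stromal cells, 1, 1, 0 and 1 were listed, and the defining markers PAX5, CD3D, CD14 and COL1A2 were not. The stromal marker that was listed, COL1A1, stood at 1.03 to 1.42 TMM-scaled CPM with DMSO, 9.35 to 11.01 with CCF642 and 2.78 to 3.56 with CCF642-34, and its part in any result was not tested.

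Most of these genes had lower transcript levels after either compound. With CCF642, 20 of the 35 genes fell, 3 rose (ATM, BRCA2 and RBBP8) and 12 were not called, with a median log2 fold change of -0.221. Over all genes tested in that comparison 63.1% were called, 31.3% as lower and 31.8% as higher, and the median was -0.007. With CCF642-34, 26 of the 35 fell, 1 rose (FANCF) and 8 were not called, with a median of -0.375. There the background was 57.6% called, 27.9% lower and 29.7% higher, with a median of 0.007 over all genes. The compounds themselves were set against each other in the same fit: 15 of the 35 genes were lower with CCF642-34 than with CCF642, 3 were higher (RAD51C, FANCF and RMI2) and 17 were not called, against 33.4% of all genes called, 17.4% lower and 15.9% higher.

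The changes were small. The fitted values ran from -0.71 (FANCL) to 0.24 (BRCA2) on the log2 scale with CCF642 and from -0.77 (CLSPN) to 0.23 (FANCF) with CCF642-34, and 0 of the 35 reached a 2-fold change. By that rule, a 2-fold change with an unadjusted p under 0.05, 6.49% of all genes were called with CCF642, 3.87% with CCF642-34 and 0.308% between the compounds. Both libraries of a compound lay below both DMSO libraries for 24 of the 35 genes with CCF642 and for 31 with CCF642-34, where the same held for 40.3% and 39.0% of all genes. Both lay above the DMSO pair for 3 genes with CCF642 and 1 with CCF642-34, against 39.1% and 39.9% of all genes. The summed level of the 35 genes was 2236 to 2259.8 TMM-scaled CPM with DMSO, 1932 to 2009.7 with CCF642 and 1786 to 1837 with CCF642-34. No library of a compound reached the DMSO range, and the ranges of the compounds did not meet. In bulk RNA, fewer cells in the phases that use these genes and less RNA per cell cannot be told apart.

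The compounds shared the DMSO libraries, so the comparisons with DMSO are not independent, and no count of genes shared between them is given. CHEK2, RAD51AP1 and RAD51C fell with CCF642 and missed the threshold with CCF642-34. CHEK1, EXO1, BRCA1, XRCC2, RAD54B, FANCB, FANCM and BLM fell with CCF642-34 and missed it with CCF642. A call with 1 compound and not the other is not by itself a difference between them, which has its own test. ATM rose with CCF642 and fell with CCF642-34. Genes called with neither compound were NBN, RAD50 and FANCD2.

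**Figure D1:**
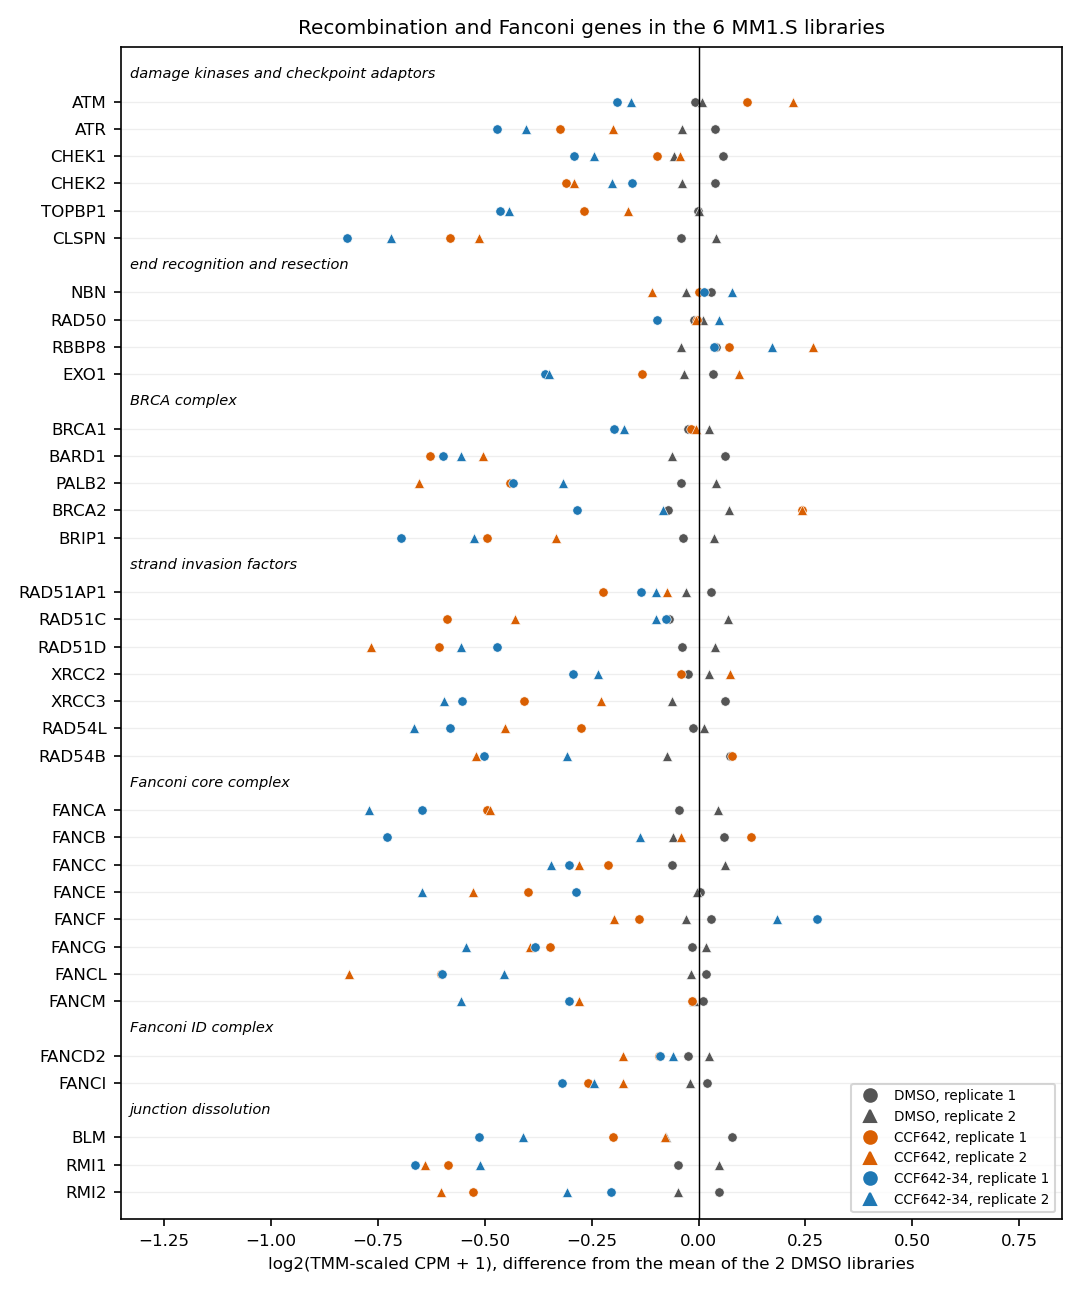
Each point is 1 library of 1 gene, plotted as its log2(TMM-scaled CPM + 1) minus the mean of the 2 DMSO libraries of that gene (x axis), with the 35 genes in rows by role; grey is DMSO, orange CCF642 and blue CCF642-34, and circles and triangles are replicates 1 and 2. Most compound points lie left of 0, down to CLSPN with CCF642-34, while ATM, BRCA2 and RBBP8 with CCF642 and FANCF with CCF642-34 lie right of it.

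The promoters of the genes were read as background to these shifts, because E2F factors are known to bind the promoters of many replication genes. Windows from 250 bases before to 50 bases after the annotated start were taken from RefSeq (GRCh38.p14), and 31 of the 35 genes had at least 1. Each was searched on both strands for 4 E2F strings (TTTCCCGC, TTTCGCGC, TTTGCCGC and TTTGGCGC) and for the strings of other elements given below, and no E2F string found overlapped one of another kind. An E2F string stood in the promoters of 8 of the 31 genes (25.8%), against 6.82% of 8871 listed genes with a window and 3.99% of 27305 genes in the table. These 8 were CLSPN, TOPBP1, EXO1, XRCC2, FANCA, FANCC, FANCD2 and RMI1. Their strings are shown with 10 bases on each side, since this was the element whose share in the 35 genes stood furthest from that in all listed genes, and capitals mark the string as read on the strand of the gene:
CLSPN (chr1:35769966-35769993, minus strand): ctctggctggGCGGGAAAgcaagaacag
TOPBP1 (chr3:133661931-133661958, minus strand): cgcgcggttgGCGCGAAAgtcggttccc
EXO1 (chr1:241848198-241848225, plus strand): aaggtcagccTTTCGCGCgctgtgtagg
XRCC2 (chr7:152676103-152676130, minus strand): ggcgttggtgGCGGGAAAgttgagtctc
FANCA (chr16:89816802-89816829, minus strand): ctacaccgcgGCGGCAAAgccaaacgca
FANCC (chr9:95317864-95317891, minus strand): cggggcttccGCGCGAAAccgggaacac
FANCC (chr9:95317738-95317765, minus strand): tcgtcggaatTTTCCCGCgacgccgcgg
FANCD2 (chr3:10026425-10026452, plus strand): gtcgggcctgGCGGGAAAgtcgaaaact
RMI1 (chr9:83980763-83980790, plus strand): gcgcgagcgcGCGGCAAAtcgggcggga

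In 7 of these 8 genes a string lay within 50 bases of the start. Counted to its first base, it stood 5 bases before the start in CLSPN, 7 before in TOPBP1, 2 before in FANCD2, 46 before in FANCC, 32 before in RMI1, 5 after in EXO1 and 22 after in XRCC2. The FANCA string stood 172 bases before it. With CCF642-34, 7 of these 8 genes fell, FANCD2 being the exception, and 16 of the 23 genes with a window and no such string fell. With CCF642, 5 of the 8 and 13 of the 23 fell. These shares are a description, and a string in a window does not show that a factor binds there.

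The CLSPN promoter is shown because CLSPN had the lowest fitted value with CCF642-34, with its E2F string and 3 copies of the CCAAT box (read here as ATTGG) in capitals. It covers chr1:35769959-35770228 of GRCh38.p14 on the minus strand, from 250 bases before the start to 20 bases after it.
CLSPN: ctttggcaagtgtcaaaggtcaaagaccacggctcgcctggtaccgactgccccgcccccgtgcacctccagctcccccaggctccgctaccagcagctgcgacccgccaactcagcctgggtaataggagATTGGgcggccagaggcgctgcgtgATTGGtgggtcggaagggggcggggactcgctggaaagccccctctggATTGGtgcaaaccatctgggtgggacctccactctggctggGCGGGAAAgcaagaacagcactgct
The FANCF promoter is shown beside it because FANCF was the gene that rose with CCF642-34. The stretch at chr11:22625804-22626073, minus strand, holds 2 copies of CCAAT, in capitals, and 0 E2F strings.
FANCF: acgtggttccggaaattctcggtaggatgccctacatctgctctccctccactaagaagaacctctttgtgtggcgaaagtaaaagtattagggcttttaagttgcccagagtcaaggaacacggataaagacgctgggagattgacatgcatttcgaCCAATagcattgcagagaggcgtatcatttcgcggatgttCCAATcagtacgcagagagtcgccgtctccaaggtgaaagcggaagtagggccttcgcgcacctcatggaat
CCAAT itself was found in 15 of the 31 genes (48.4%, against 43.9% of listed genes). The cell cycle element CHR (TTTGAA) was found in 3 genes (9.68%, against 13.9% of listed genes). A palindromic NRF1 string and the ATF4 element CARE (TGATGNAA) were found in RBBP8 alone (3.23% for each, against 2.78% and 2.73%).

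The damage kinases and their adaptors fell with CCF642-34 in 5 of 6 cases, and with CCF642 in 4 of 6, with ATM higher. CLSPN encodes Claspin, which holds CHEK1 next to ATR for activation. Its level was 97.5 and 103 TMM-scaled CPM in the DMSO libraries, 66.7 and 69.9 with CCF642 and 56.3 and 60.5 with CCF642-34. The 3 groups did not overlap, and CCF642-34 stood lowest. CLSPN fell by 31.6% with CCF642 (log2 fold change -0.55, SE 0.061, adjusted p = 6.16e-11) and fell by 41.4% with CCF642-34 (log2 fold change -0.77, SE 0.061, adjusted p = 2.3e-15), and the difference between the compounds was -0.22 (adjusted p = 0.00352). TOPBP1, an activator of ATR, showed the same order at a level that was high per kilobase of exon (34.3 TMM-scaled CPM per kb with DMSO). It had 212 and 212 TMM-scaled CPM with DMSO, 176 and 189 with CCF642 and 153 and 156 with CCF642-34. TOPBP1 fell with CCF642 (log2 fold change -0.22, SE 0.047, adjusted p = 8.14e-05) and fell further with CCF642-34 (log2 fold change -0.45, SE 0.047, adjusted p = 1.15e-11; -0.24 between the compounds, adjusted p = 7.92e-05). ATR, the kinase for stalled forks, went from 79.7 and 75.5 TMM-scaled CPM with DMSO to 61.7 and 67.4 with CCF642 and 55.7 and 58.4 with CCF642-34. All 4 treated libraries were below both DMSO libraries, and the fitted changes were -0.26 (adjusted p = 0.000354) and -0.44 (adjusted p = 6.62e-08).

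CHEK1, the kinase that ATR switches on, held 111 and 102 TMM-scaled CPM with DMSO and 99.5 and 103 with CCF642, where the libraries overlapped (log2 fold change -0.070, 95% interval -0.18 to 0.04, adjusted p = 0.274). With CCF642-34 it had 86.8 and 89.7 TMM-scaled CPM, below all other libraries, and fell by 16.9% (log2 fold change -0.27, SE 0.055, adjusted p = 5.17e-05). CHEK2, the kinase downstream of ATM, was lower with CCF642 (log2 fold change -0.30, adjusted p = 0.00173) and missed the threshold with CCF642-34 (log2 fold change -0.18, adjusted p = 0.0637), and the compounds were not called different (0.12, 95% interval -0.05 to 0.29). ATM, the kinase for DNA breaks, parted the compounds. It had 102 and 103 TMM-scaled CPM with DMSO, 111 and 119.2 with CCF642 and 89.4 and 91.5 with CCF642-34. Both CCF642 libraries were above and both CCF642-34 libraries below the DMSO pair, by a small margin each. ATM rose by 12.3% with CCF642 (log2 fold change 0.17, SE 0.054, adjusted p = 0.00657) and fell by 11.3% with CCF642-34 (log2 fold change -0.17, SE 0.054, adjusted p = 0.00546), and the difference between the compounds was -0.34 (SE 0.054, adjusted p = 2.16e-06). The rise depended on the scaling: by library size alone it was log2 fold change 0.034, adjusted p = 0.593. It was also lost without DMSO replicate 1 (adjusted p = 0.0588) or CCF642 replicate 2 (adjusted p = 0.102), and the fall with CCF642-34 was lost without DMSO replicate 2 (adjusted p = 0.0546).

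The 4 genes for end recognition and resection had the medians nearest 0 of the 7 roles, -0.011 with CCF642 and 0.011 with CCF642-34. RAD50, the ATPase of the MRE11 complex that tethers broken ends, had 79.5 and 80.7 TMM-scaled CPM with DMSO, 79.9 and 79.7 with CCF642 and 74.8 and 82.8 with CCF642-34. All 3 groups overlapped, with fitted changes of -0.004 (95% interval -0.12 to 0.11) and -0.025 (95% interval -0.14 to 0.09). In the annotation, 90.6% of the RAD50 exon bases also belong to another protein-coding gene model on the same strand, so its reads may be split. NBN, the subunit of that complex that recruits ATM, was not called either, at -0.054 (95% interval -0.18 to 0.07) and 0.046 (95% interval -0.08 to 0.17). RBBP8, which encodes CtIP, the factor that starts resection, was high per kilobase (36.6 TMM-scaled CPM per kb with DMSO). It stood at 139 and 131 TMM-scaled CPM with DMSO, 141.9 and 163 with CCF642 and 139 and 152 with CCF642-34. CCF642 libraries lay above the DMSO pair and RBBP8 rose by 12.4% (log2 fold change 0.17, SE 0.055, adjusted p = 0.00663), a call lost with scaling by library size (log2 fold change 0.035, adjusted p = 0.586), without DMSO replicate 2 (adjusted p = 0.112) and without CCF642 replicate 2 (log2 fold change 0.071, adjusted p = 0.28). Without CCF642 replicate 1 its change was larger (0.27). EXO1, the exonuclease that extends resection, was the member of this group that fell. Its levels were 110.0 and 104.8 TMM-scaled CPM with DMSO, 97.9 and 115 with CCF642 and 83.4 and 84.1 with CCF642-34. The CCF642 libraries lay on either side of the DMSO pair (log2 fold change -0.018, adjusted p = 0.808), while both CCF642-34 libraries were below all others (log2 fold change -0.35, SE 0.059, adjusted p = 1.25e-06). Between the compounds EXO1 differed by -0.34 (SE 0.059, adjusted p = 1.23e-05), and by -0.22 without CCF642 replicate 2 (adjusted p = 0.00308).

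In the BRCA group, 3 of 5 genes fell with CCF642 and 4 of 5 with CCF642-34. BRIP1, the helicase that BRCA1 recruits, went from 49.7 and 52.3 TMM-scaled CPM with DMSO to 35.9 and 40.2 with CCF642 and 31.1 and 35.2 with CCF642-34. All 4 treated libraries were below the DMSO pair (log2 fold change -0.41, SE 0.078, adjusted p = 9.14e-06 with CCF642; log2 fold change -0.61, SE 0.078, adjusted p = 3.53e-09 with CCF642-34). BARD1, the partner of BRCA1 in its ubiquitin ligase, had close values with the compounds. It had 103 and 94.7 TMM-scaled CPM with DMSO, 63.7 and 69.4 with CCF642 and 65.0 and 67.0 with CCF642-34. BARD1 fell by 32.5% with CCF642 (log2 fold change -0.57, SE 0.061, adjusted p = 3.01e-11) and fell by 33.0% with CCF642-34 (log2 fold change -0.58, SE 0.061, adjusted p = 2.42e-11), with -0.011 between the compounds (95% interval -0.13 to 0.11). BRCA1 itself was not called with CCF642, at 84.5 and 87.6 TMM-scaled CPM with DMSO and 85.0 and 85.7 with CCF642 (-0.012, 95% interval -0.13 to 0.10). With CCF642-34 it had 74.9 and 76.1 TMM-scaled CPM, below all other libraries, and fell by 12.1% (log2 fold change -0.19, SE 0.057, adjusted p = 0.00449), a call lost without DMSO replicate 2 (adjusted p = 0.0796).

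PALB2, the bridge between BRCA1 and BRCA2, fell with CCF642 (log2 fold change -0.55, adjusted p = 1.12e-06) and with CCF642-34 (log2 fold change -0.38, adjusted p = 0.000465). BRCA2, which prepares the exposed strand for pairing, was low per kilobase of its long transcript (2.12 TMM-scaled CPM per kb with DMSO). It had 24.1 and 26.7 TMM-scaled CPM with DMSO, 30.2 and 30.2 with CCF642 and 20.6 and 23.9 with CCF642-34. Both CCF642 libraries were the highest of the 6 and both CCF642-34 libraries the lowest. BRCA2 rose by 18.2% with CCF642 (log2 fold change 0.24, SE 0.091, adjusted p = 0.0193), its change with CCF642-34 was -0.18 (SE 0.091, adjusted p = 0.0799), and the compounds differed by -0.43 (SE 0.091, adjusted p = 0.000245). The rise was lost with scaling by library size (log2 fold change 0.11, adjusted p = 0.282), by DESeq2 (adjusted p = 0.0564) and without DMSO replicate 1 (adjusted p = 0.218).

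Among the strand invasion factors, 5 of 7 genes fell with each compound. RAD54L, the motor protein that helps a strand to find its partner, had 69.8 and 71.2 TMM-scaled CPM with DMSO, 58.1 and 51.2 with CCF642 and 46.8 and 44.0 with CCF642-34. The groups were in separate ranges, CCF642-34 lowest (log2 fold change -0.36, SE 0.068, adjusted p = 8.09e-06 with CCF642; log2 fold change -0.62, SE 0.068, adjusted p = 5.38e-11 with CCF642-34). XRCC3, which works with RAD51C, showed the same order. Its values were 24.0 and 21.9 TMM-scaled CPM with DMSO, 17.03 and 19.4 with CCF642 and 15.3 and 14.8 with CCF642-34 (log2 fold change -0.32, SE 0.1, adjusted p = 0.00617 with CCF642; log2 fold change -0.57, SE 0.1, adjusted p = 4.52e-06 with CCF642-34). The call with CCF642 was lost without DMSO replicate 1 (adjusted p = 0.102) or CCF642 replicate 1 (adjusted p = 0.0815). XRCC2, which pairs with RAD51D, had 54.1 and 56.0 TMM-scaled CPM with DMSO and 53.5 and 58.0 with CCF642, where the ranges overlapped (0.017, 95% interval -0.12 to 0.15). CCF642-34 left it at 44.7 and 46.6 TMM-scaled CPM, below all other libraries (log2 fold change -0.26, SE 0.068, adjusted p = 0.000857), and the compounds differed by -0.28 (adjusted p = 0.00102).

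RAD51C, which forms complexes with XRCC3 and with RAD51D and XRCC2, fell with CCF642 and was not called with CCF642-34. It stood at 14.7 and 16.3 TMM-scaled CPM with DMSO, 9.95 and 11.2 with CCF642 and 14.6 and 14.4 with CCF642-34. The CCF642 libraries were the lowest, and the CCF642-34 libraries lay just under the DMSO pair. RAD51C fell by 29.7% with CCF642 (log2 fold change -0.51, SE 0.11, adjusted p = 0.000153), had -0.088 with CCF642-34 (95% interval -0.32 to 0.14, adjusted p = 0.531), and was higher with CCF642-34 than with CCF642 by 0.42 (SE 0.11, adjusted p = 0.0036). RAD51D fell with CCF642 (log2 fold change -0.69, adjusted p = 1.1e-06) and with CCF642-34 (log2 fold change -0.51, adjusted p = 0.000147). It had 17.4 and 18.4 TMM-scaled CPM with DMSO, above RAD51C. Its low value per kilobase (1.76 TMM-scaled CPM per kb with DMSO) came with a merged length of 10190 bases, which joins the exons of all its annotated transcripts. RAD51AP1, which stimulates strand invasion, was slightly lower with CCF642 (log2 fold change -0.15, adjusted p = 0.0373), a call lost by DESeq2 (adjusted p = 0.0966) and without either DMSO replicate (adjusted p = 0.228 and 0.0671). Without CCF642 replicate 1 its change was smaller (log2 fold change -0.074, adjusted p = 0.374), and without CCF642 replicate 2 larger (-0.22). RAD54B, a relative of RAD54L, was near the bottom of the level range (1.81 TMM-scaled CPM per kb with DMSO) and its CCF642 replicates were 8.79 and 5.46 TMM-scaled CPM, the widest gap of any of the 35 genes in that group. It was lower with CCF642-34 (log2 fold change -0.40, adjusted p = 0.0245), a call lost by DESeq2 (log2 fold change -0.47, adjusted p = 0.0819), without DMSO replicate 1 (adjusted p = 0.153) or CCF642-34 replicate 1 (adjusted p = 0.204). Of its exon bases, 63.3% also belong to FSBP on the same strand.

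In the Fanconi core complex and its partner FANCM, 5 of 8 genes fell with CCF642, and 7 fell and 1 rose with CCF642-34. FANCA, the subunit most often mutated in Fanconi anemia, had 62.7 and 66.8 TMM-scaled CPM with DMSO, 45.7 and 45.8 with CCF642 and 40.96 and 37.5 with CCF642-34. Its groups did not overlap, and FANCA fell by 28.9% with CCF642 (log2 fold change -0.49, SE 0.07, adjusted p = 3.67e-08) and fell by 38.8% with CCF642-34 (log2 fold change -0.71, SE 0.07, adjusted p = 2.97e-12). FANCL, the subunit that attaches the ubiquitin, had the lowest fitted value of the 35 genes with CCF642. Its values were 18.8 and 18.3 TMM-scaled CPM with DMSO, 11.9 and 10.1 with CCF642 and 11.9 and 13.2 with CCF642-34. FANCL fell by 38.8% with CCF642 (log2 fold change -0.71, SE 0.11, adjusted p = 6.11e-07) and fell by 30.6% with CCF642-34 (log2 fold change -0.53, SE 0.11, adjusted p = 0.000109), and the compounds were not called different (0.18, 95% interval -0.05 to 0.41). The other core subunits that fell with both compounds were FANCG (-0.37 and -0.46), FANCE (-0.46 and -0.47) and FANCC (-0.25 and -0.32), with adjusted p of 1.32e-06, 0.000356 and 0.0221 for CCF642. For CCF642-34 the adjusted p were 1.47e-08, 0.00037 and 0.00317. FANCC was lost with CCF642 by DESeq2 (log2 fold change -0.26, adjusted p = 0.0603), without DMSO replicate 2 (adjusted p = 0.22) or CCF642 replicate 2 (adjusted p = 0.0859) and with CCF642-34 without DMSO replicate 2 (adjusted p = 0.0795), and FANCE was lost with CCF642-34 without its replicate 2 (log2 fold change -0.29, adjusted p = 0.0672).

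FANCF, the adaptor that holds FANCM to the core complex, was the gene that rose with CCF642-34. It had 37.1 and 35.5 TMM-scaled CPM with DMSO, 32.8 and 31.5 with CCF642 and 44.2 and 41.3 with CCF642-34. Both CCF642 libraries were below and both CCF642-34 libraries above the DMSO pair. The change was -0.17 with CCF642 (SE 0.077, adjusted p = 0.0525), FANCF rose by 17.3% with CCF642-34 (log2 fold change 0.23, SE 0.077, adjusted p = 0.00932), and the compounds differed by 0.40 (SE 0.077, adjusted p = 5.63e-05). The rise was lost with scaling by library size (log2 fold change 0.14, adjusted p = 0.108), without DMSO replicate 2 (adjusted p = 0.0979) and without CCF642-34 replicate 1 (adjusted p = 0.113). FANCB, an X-linked subunit, was low (2.84 TMM-scaled CPM per kb with DMSO) and uneven. It had 8.96 and 8.17 TMM-scaled CPM with DMSO, 9.397 and 8.28 with CCF642 and 4.77 and 7.69 with CCF642-34. CCF642-34 replicate 1 stood well below the other 5 libraries, and the fall with CCF642-34 (log2 fold change -0.43, SE 0.15, adjusted p = 0.0129) shrank without it (log2 fold change -0.14, adjusted p = 0.529) and grew without replicate 2 (-0.73). By DESeq2 the size was kept and the call lost (log2 fold change -0.47, adjusted p = 0.0728), and the call was also lost without DMSO replicate 1 (log2 fold change -0.37, adjusted p = 0.0912). FANCM, the helicase that anchors the complex to DNA, had the lowest level per kilobase of the 35 genes (1.70 TMM-scaled CPM per kb with DMSO). It was lower with CCF642-34 (log2 fold change -0.43, adjusted p = 0.0035), a call lost without CCF642-34 replicate 2 (adjusted p = 0.109), and was not called with CCF642 (log2 fold change -0.15, adjusted p = 0.319).

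The targets of the core complex, FANCI and FANCD2, differed from each other in their calls. FANCI had the highest level of the 35 genes per kilobase (42.3 TMM-scaled CPM per kb with DMSO). It had 222 and 216 TMM-scaled CPM with DMSO, 183 and 194 with CCF642 and 175 and 185 with CCF642-34. All treated libraries were below the DMSO pair (log2 fold change -0.22, SE 0.046, adjusted p = 6.75e-05 with CCF642; log2 fold change -0.28, SE 0.046, adjusted p = 9.9e-07 with CCF642-34). FANCD2 had 67.1 and 69.5 TMM-scaled CPM with DMSO, 64.0 and 60.3 with CCF642 and 64.1 and 65.5 with CCF642-34. Its treated libraries were also below the DMSO pair, but by margins that were not called (-0.14, adjusted p = 0.0554; -0.074, adjusted p = 0.313). FANCD2 has an annotated pseudogene copy, as do CHEK2, RBBP8 and RAD51AP1, and reads shared with such copies may have been counted in either place.

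The dissolution complex, which separates joined DNA molecules after repair, was lower with CCF642-34 in all 3 of its genes and with CCF642 in 2. RMI1, its scaffold, went from 40.5 and 43.4 TMM-scaled CPM with DMSO to 27.6 and 26.6 with CCF642 and 26.1 and 29.1 with CCF642-34. RMI1 fell with CCF642 (log2 fold change -0.61, SE 0.083, adjusted p = 1.17e-08) and with CCF642-34 (log2 fold change -0.59, SE 0.083, adjusted p = 4.28e-08), and the compounds were 0.027 apart (95% interval -0.14 to 0.19). BLM, the helicase lost in Bloom syndrome, had 59.4 and 53.3 TMM-scaled CPM with DMSO, 48.9 and 53.3 with CCF642 and 39.1 and 42.1 with CCF642-34. BLM was not called with CCF642 (log2 fold change -0.14, adjusted p = 0.089) and fell by 27.4% with CCF642-34 (log2 fold change -0.46, SE 0.072, adjusted p = 3.09e-07), with -0.32 between the compounds (adjusted p = 0.000368). RMI2, the small subunit, ran the other way between the compounds. It had 23.9 and 22.3 TMM-scaled CPM with DMSO, 15.7 and 14.8 with CCF642 and 19.9 and 18.5 with CCF642-34. RMI2 fell more with CCF642 (log2 fold change -0.56, SE 0.1, adjusted p = 3.41e-06) than with CCF642-34 (log2 fold change -0.26, SE 0.1, adjusted p = 0.0266), by 0.31 (adjusted p = 0.0139). The call with CCF642-34 was lost by DESeq2 (adjusted p = 0.0542) and without DMSO replicate 1, DMSO replicate 2 or CCF642-34 replicate 2 (adjusted p = 0.201, 0.0507 and 0.177).

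The compounds were given at the same dose and time. Their difference was read gene by gene in 35 comparisons, with p values adjusted over all 11048 genes. The study reports the analog as the more potent compound against these cells, so an equal dose need not be an equally effective dose. Whether a difference between the compounds reflects a stronger effect or another kind of effect was not tested. The fitted differences ran from -0.47 (FANCB) to 0.42 (RAD51C). That of FANCB rested on CCF642-34 replicate 1 and was -0.18 without it (-0.77 without replicate 2). Lower with CCF642-34 than with CCF642 were ATM, ATR, CHEK1, TOPBP1, CLSPN, EXO1, BRCA1, BRCA2, BRIP1, XRCC2, XRCC3, RAD54L, FANCA, FANCB and BLM, at adjusted p from 2.16e-06 (ATM) to 0.0485 (XRCC3). Both CCF642-34 libraries lay below both CCF642 libraries for 17 of the 35 genes and above them for 9, against 31.0% and 32.4% of all genes. Higher with CCF642-34 were RAD51C, FANCF and RMI2. Of the 17 genes not called, the intervals were narrowest for FANCI (-0.065, 95% interval -0.16 to 0.03) and widest for RAD54B (-0.18, 95% interval -0.50 to 0.13). An interval such as that of FANCE (-0.004, -0.23 to 0.22) leaves room for differences in either direction. Without CCF642-34 replicate 1, only 8 genes stayed lower: the calls of ATR, CHEK1, CLSPN, BRCA1, BRIP1, XRCC3 and FANCB were lost (adjusted p from 0.063 for CHEK1 to 0.494 for FANCB), as was RMI2 among the higher genes (adjusted p = 0.14). Leaving out CCF642-34 replicate 2 lost ATR, BRCA1, XRCC3, RAD54L and FANCA (adjusted p from 0.0516 to 0.191), CCF642 replicate 1 lost RAD54L and FANCB (0.0664 to 0.0725), and CCF642 replicate 2 lost ATR, BRIP1, XRCC3 and RMI2 (0.0601 to 0.329). Of these, BRIP1 without CCF642-34 replicate 1 (-0.11), RAD54L without CCF642 replicate 1 (-0.17) and ATR (-0.11), BRIP1 (-0.12) and XRCC3 (-0.17) without CCF642 replicate 2 shrank by over 1.5 times. The calls of ATR, BRIP1 and XRCC3 were also lost by library size (11 genes lower in all, with BRCA1 lost as well), by DESeq2 (11 lower, with FANCB and RMI2 lost as well) and in the fit of 2 groups (12 lower), and XRCC3 was lost with voom and with a pseudocount of 2 (14 lower each).

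**Figure D2:**
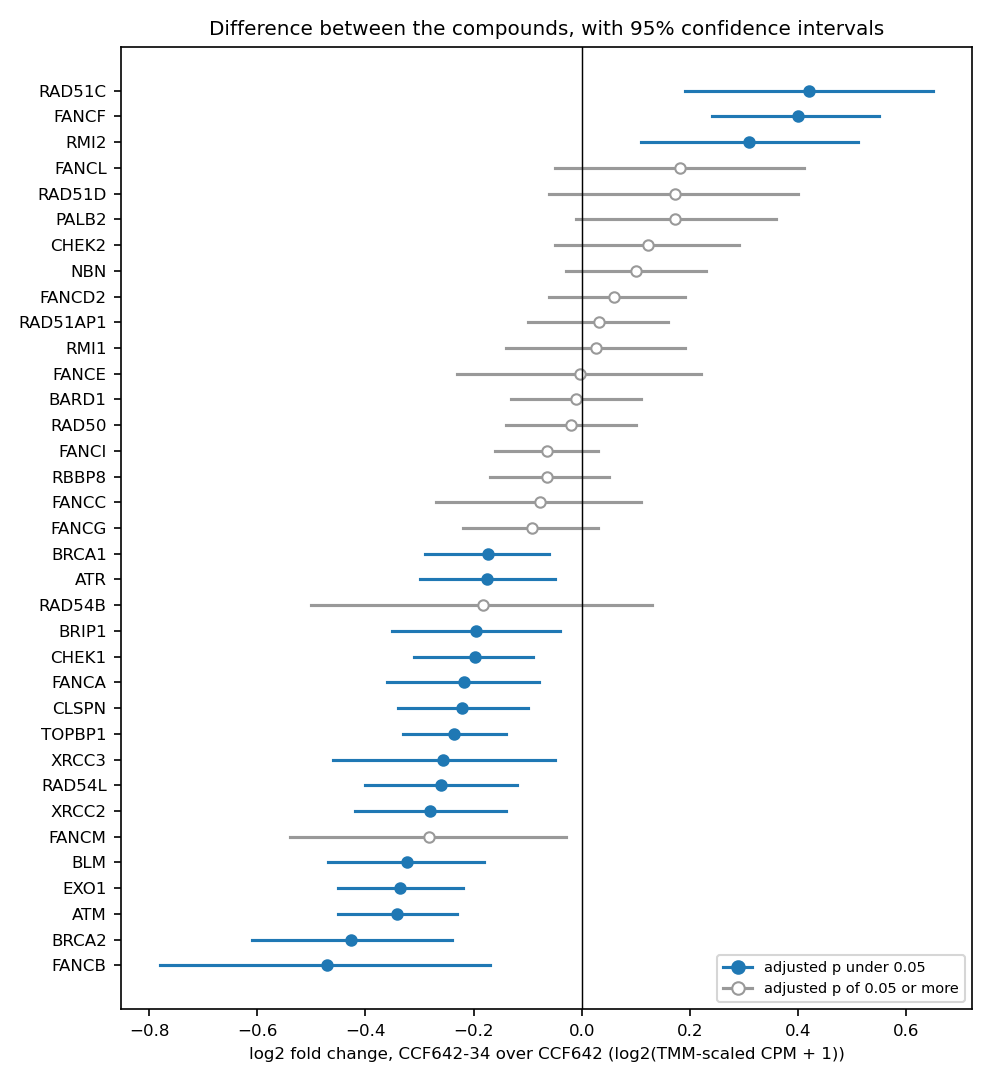
Log2 fold change of CCF642-34 over CCF642 (x axis) for each of the 35 genes (rows, sorted), with 95% confidence intervals from limma; filled blue points had an adjusted p under 0.05 and open grey points did not. RAD51C, FANCF and RMI2 lie to the right of 0 and 15 filled points lie to the left, down to FANCB.

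The difference between the compounds also moved with merged exon length. Over 11016 listed genes with a merged exon length in GENCODE 29, the Spearman correlation of that difference with length was -0.238, and over the 35 genes it was -0.343. These are descriptions across genes that share the same 6 libraries. The median difference of all genes went from 0.099 in the shortest of 5 length bins (87 to 2190 bases) to -0.071 in the longest (6448 bases and above). BRCA2 (11986 bases) and ATM (18299 bases), both lower with CCF642-34, have the longest merged exons of the 35 genes. The 9 members in the longest bin had a median of -0.176. RAD51C (2960 bases), FANCF (2952 bases) and RMI2 (3139 bases), which were higher, were all in the second bin (2191 to 3216 bases), where 10 members had a median of -0.048 and all genes one of 0.033. In that bin FANCB (3015 bases) had the lowest value of all. Against DMSO, the correlation over the 35 genes was 0.265 with CCF642 and -0.004 with CCF642-34, where all genes gave 0.011 and -0.127. The part of length in the differences of single genes was not tested.

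**Figure D3:**
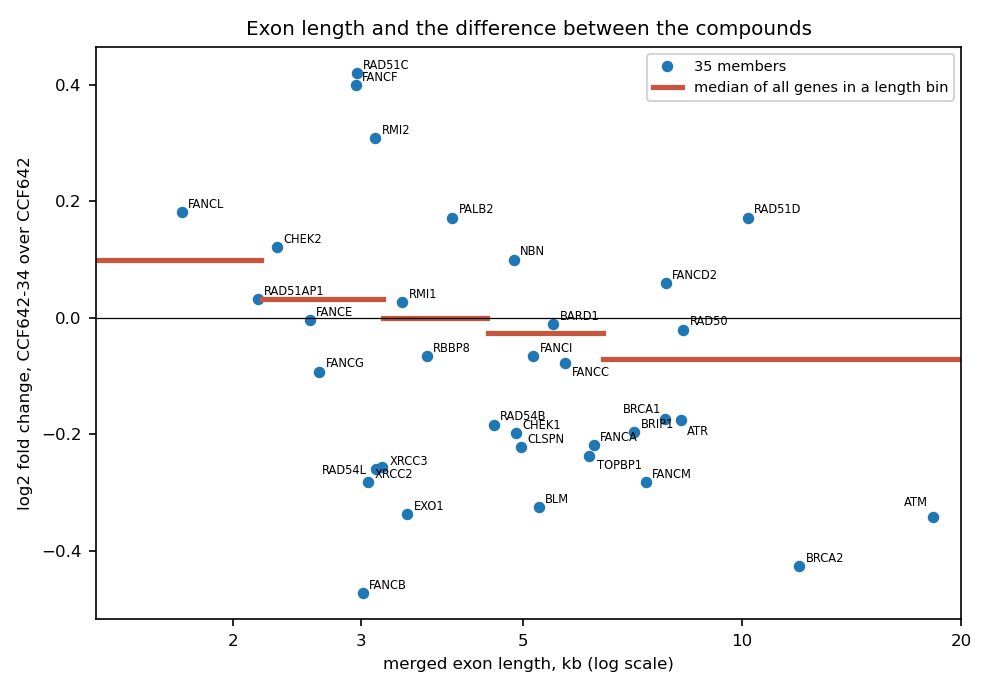
Log2 fold change of CCF642-34 over CCF642 (y axis) against merged exon length in kb (x axis, log scale) for the 35 genes (blue points), with the median of all genes in each of 5 length bins with near equal numbers of genes as red lines, drawn within the range of the axis. The red lines step down from 0.099 in the shortest bin to -0.071 in the longest, BRCA2 and ATM sit below the last line at the right, and RAD51C, FANCF and RMI2 stand above the others near 3 kb.

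Beyond these 35 genes, 57 further genes of recombination, the Fanconi pathway and the checkpoint were listed. With CCF642, 22 of them fell (38.6%) and 11 rose (19.3%), with a median of -0.062, against 31.3% and 31.8% of all genes. With CCF642-34, 29 fell (50.9%) and 4 rose (7.02%), with a median of -0.223, against 27.9% and 29.7%. Scaling by library size alone moved calls downward across all genes (42.9% lower and 22.9% higher with CCF642, 36.0% and 22.6% with CCF642-34). Of the 57 genes it gave 33 lower and 3 higher (median -0.193), and 36 lower and 3 higher (median -0.31). Among those with the largest changes, WEE1, the kinase that holds cells before mitosis, was at 112 and 101.4 TMM-scaled CPM with DMSO, 62.4 and 67.7 with CCF642 and 53.9 and 54.7 with CCF642-34. WEE1 fell with both (-0.70 and -0.96, adjusted p = 6.59e-14 and 2.41e-18). SLX4, the scaffold for nucleases that cut links, fell too (-0.93 and -0.82, adjusted p = 9.97e-12 and 3.9e-10). WDR48, a partner of the enzyme that takes ubiquitin off FANCD2 and FANCI, rose with both (0.66 and 0.41, adjusted p = 2e-15 and 5.05e-09).

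In the competing route, non-homologous end joining, the shares called were near those of all genes. Of 11 listed genes, 4 rose (36.4%) and 3 fell (27.3%) with CCF642, against 31.8% and 31.3% of all genes, and 3 rose (27.3%) and 2 fell (18.2%) with CCF642-34, against 29.7% and 27.9%. The medians were 0.203 and 0.08. With scaling by library size alone they were 0.073 and -0.009, with 1 gene higher and 4 lower and with 2 higher and 4 lower, where all genes moved too (42.9% lower and 22.9% higher with CCF642, 36.0% and 22.6% with CCF642-34). Its kinase PRKDC fell with both compounds (-0.51 and -0.65, adjusted p = 1.15e-14 and 3.98e-18), and the polymerase gene POLL rose (0.20 and 0.36, adjusted p = 0.0241 and 0.000107). Of 38 genes of other DNA repair, 16 fell (42.1%) and 8 rose (21.1%) with CCF642, against 31.3% and 31.8% of all genes. With CCF642-34, 13 fell (34.2%) and 10 rose (26.3%), against 27.9% and 29.7%. The medians of these 38 genes were near 0 (0.025 and -0.035). By library size alone, 18 fell and 5 rose, and 16 fell and 7 rose. The uracil glycosylase UNG went from 103 and 103 TMM-scaled CPM with DMSO to 34.5 and 35.2 with CCF642 and 36.1 and 34.97 with CCF642-34, a fall larger than that of any of the 35 genes (-1.54 and -1.51, adjusted p = 4.5e-25 and 1.75e-24).

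Cell cycle genes moved in the same libraries. Against DMSO, 31.3% of all genes fell and 31.8% rose with CCF642, and 27.9% fell and 29.7% rose with CCF642-34. Of 34 S phase genes, 27 fell and 4 rose with CCF642 (median -0.376), and 26 fell and 3 rose with CCF642-34 (median -0.443). Of 33 G2 and M phase genes, 33 fell with CCF642 (median -0.828) and 32 with CCF642-34 (median -0.703), all further on the median than the 35 recombination and Fanconi genes. The summed level of the S phase genes was 5704 to 5757 TMM-scaled CPM with DMSO, 4373 to 4472 with CCF642 and 4175 to 4188 with CCF642-34, and that of the G2 and M phase genes was 5574 to 5726, 3103 to 3248 and 3356 to 3466. Between the compounds these lists parted. With CCF642-34 against CCF642, 12 S phase genes were lower (35.3%) and 1 higher (2.94%), as with the 35 genes. In the same comparison 17 G2 and M phase genes were higher (51.5%) and 3 lower (9.09%), against 15.9% and 17.4% of all genes. The part of these lists in the changes of the 35 genes was not tested. Of 32 E2F, RB and cell cycle regulators, 14 fell and 10 rose with CCF642, and 16 fell and 8 rose with CCF642-34. CDKN1A, the p21 inhibitor of cyclin-dependent kinases, rose from 19.8 and 18.6 TMM-scaled CPM with DMSO to 139.8 and 128 with CCF642 and 119.05 and 114 with CCF642-34 (2.74 and 2.54, adjusted p = 1.13e-36 and 5.13e-35). CCNE1, the cyclin of the step into S phase, fell (-1.58 and -1.76, adjusted p = 2.2e-16 and 7.37e-18). Of 20 p53 target genes, 7 rose and 6 fell with CCF642, and 7 rose and 4 fell with CCF642-34. With each compound 4 of the 20 rose at least 2-fold (unadjusted p under 0.05) and 0 fell as much. Of all 11048 genes, 497 rose so with CCF642 and 286 with CCF642-34. The largest rises with CCF642-34 were those of BBC3 (2.62 and 2.56) and PMAIP1 (2.68 and 1.95). The largest falls were those of POLH (-0.96 and -0.91) and TP53INP1 (-0.50 and -0.75). With scaling by library size alone, the S phase medians were -0.509 and -0.53, the G2 and M phase medians -0.961 and -0.792, 17 regulators fell and 8 rose with CCF642, 19 fell and 6 rose with CCF642-34, and the p53 targets split into 6 higher and 7 lower with CCF642 and 6 higher and 5 lower with CCF642-34.

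**Figure D4:**
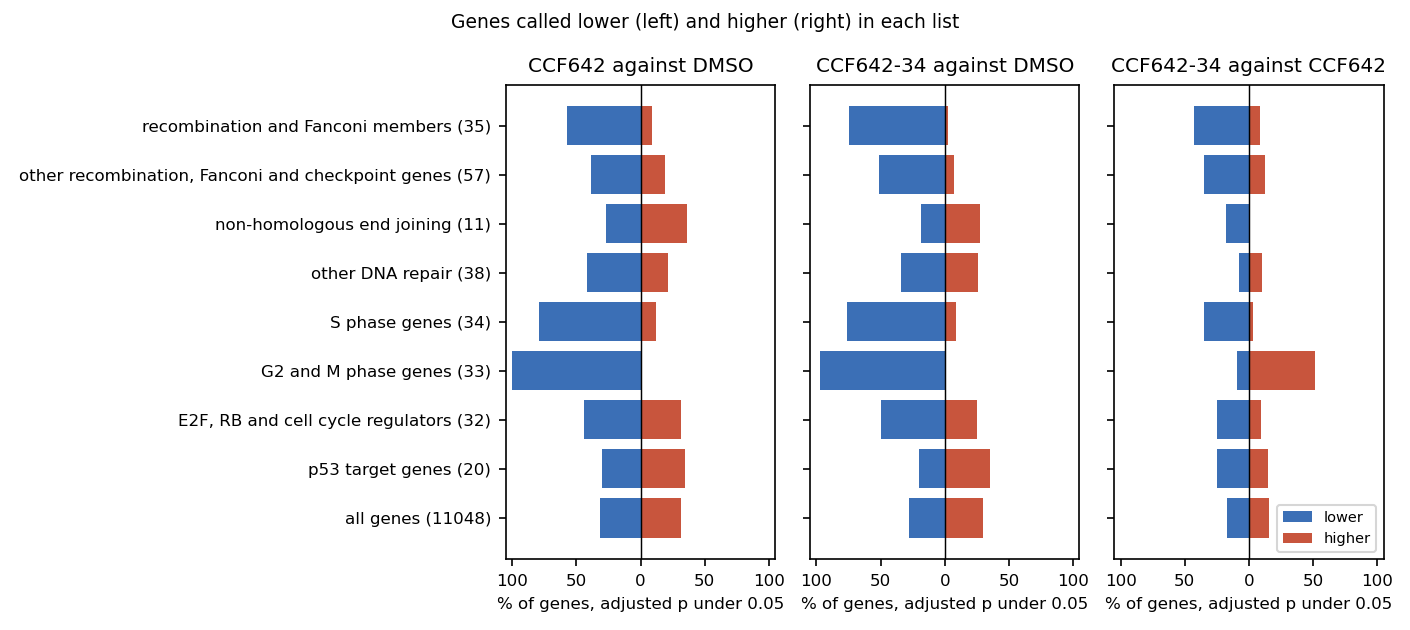
Share of genes with an adjusted p under 0.05 (x axis, percent), called lower (blue, to the left) or higher (red, to the right), for the 35 genes, 7 related lists and all 11048 genes (rows, with the number of genes), in the 3 comparisons (panels). Against DMSO the 35 genes are mostly blue, less so than the S phase and the G2 and M phase lists, while all genes split about evenly.

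The counting of some genes was less certain than that of others. In the annotation, 16 of the 35 genes share exon bases with another gene, 5 of them with a gene that was also listed: XRCC3 with KLC1 (45.3% of its exon bases), FANCL with VRK2 (26.6%), FANCA with ZNF276 (22.4%), RAD54L with LRRC41 (18.0%) and FANCI with POLG (8.33%), each on the opposite strand. Whether the counting used the strand is not given in the sources used here, so reads of such pairs may have been mixed. With scaling by library size alone, the median of all genes moved to -0.131 with CCF642 and -0.078 with CCF642-34, and 28 and 30 of the 35 genes were lower and 0 higher. Over all genes that scaling gave 42.9% lower and 22.9% higher with CCF642, and 36.0% lower and 22.6% higher with CCF642-34, so the shift to lower calls ran across all genes.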

How the data were processed

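The mRNA of MM1.S cells was enriched with oligo(dT) beads and turned into libraries with random hexamer primers. The submitters' processing notes name STAR, edgeR 3.24.3, limma 3.38.3 and hg19, with no version for STAR. The authors deposited CPM values for 11048 gene symbols per library, a unit read from the values, and the highest value of each gene is at least 1.50 CPM. Every value was a whole multiple of the share of 1 read (100% within a tolerance of 0.01), and the reads recovered served for TMM factors and count-based alternatives. The counting tool, annotation and strand setting are not given in the sources used here.

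CPM were scaled by TMM factors (edgeR 4.0.16), increased by 1, converted to log2 and fitted with limma 3.58.1 in R 4.3.3, with the variance following the mean, 3 residual and 42.9 prior degrees of freedom, and Benjamini-Hochberg adjustment over all genes. The 3 groups were fitted together, no gene was filtered, and tests were two-sided. The same scripts were tested on simulated data. Exon lengths and overlaps came from GENCODE 29 (GRCh38), and promoters from RefSeq (GRCh38.p14), and no coordinate was joined to the deposited values except by gene symbol.

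The members and gene lists were chosen with earlier results of these data known. Values per library are given for the 2 genes of each role with the largest and the 1 with the smallest absolute change with CCF642-34, for genes whose direction differed between compounds and for genes called between them. From related lists, the 2 largest increases and decreases with CCF642-34 could be named. The alternatives were other scalings, a pseudocount of 0.1 or 2, means of at least 5 CPM, edgeR, DESeq2 1.42.0, voom, fits of 2 groups, a replicate block, a 1.5-fold minimum (treat) and leaving out each library. A table of the whole series with the same CPM values was not used.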

Additional observations from a re-analysis of the deposited data

Results flagged for a closer look

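For 5 of the 35 genes the fitted changes against DMSO had opposite signs with the compounds, and the difference between the compounds was itself called by limma. The log2 fold change of CCF642-34 over CCF642 was -0.34 for ATM (adjusted p = 2.16e-06), -0.43 for BRCA2 (adjusted p = 0.000245), -0.28 for XRCC2 (adjusted p = 0.00102), -0.47 for FANCB (adjusted p = 0.0128) and 0.40 for FANCF (adjusted p = 5.63e-05). For XRCC2 and FANCB the change with CCF642 was near 0 (0.017 and 0.040), so the opposite signs rest on values not called. ATM alone was called in opposite directions against DMSO. The FANCB difference was lost without CCF642 replicate 1 (adjusted p = 0.0664) and by DESeq2 (adjusted p = 0.078), and shrank without CCF642-34 replicate 1 (log2 fold change -0.18, adjusted p = 0.494). With 2 libraries per group, no group was large enough for a check of single outlying libraries.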

How the results depend on the processing

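Every single-gene call kept its direction under every alternative. Each call was checked once under each alternative. Leaving out 1 library kept the call in 227 of 272 such checks, and the other alternatives in 657 of 748. The causes of the lost calls were not tested. With CCF642, scaling by library size gave 0 genes higher and a median of -0.351, a pseudocount of 0.1 a median of -0.251 and voom -0.255. With CCF642-34, scaling by library size gave 0 higher and a median of -0.462, a pseudocount of 2 a median of -0.359, DESeq2 -0.394 and the fit of 2 groups 2 genes higher. Between the compounds, scaling by library size gave a median of -0.049, against -0.092. Tested against a 1.5-fold minimum (treat), 0 genes were higher in any comparison, and 0 with CCF642, 1 (CLSPN) with CCF642-34 and 0 between the compounds were lower, the minimum being above most of these changes.

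Without 1 library, the lone library of its group is assumed to vary like the others. With CCF642, 18 to 21 genes were then lower and 1 to 3 higher, with medians of -0.258 to -0.217. The lower figure for higher genes came without DMSO replicate 1 or CCF642 replicate 2. With CCF642-34, 22 to 24 were lower and 0 to 1 higher, 0 without DMSO replicate 2, with medians of -0.389 to -0.317. Between the compounds, 8 to 14 were lower and 2 to 4 higher, with medians of -0.130 to -0.106, and the count of 8 lower came without CCF642-34 replicate 1 and that of 10 without CCF642-34 replicate 2. Deviations of libraries with the same replicate number were weakly correlated between groups (-0.047, -0.0771 and 0.111 over 9390 genes). That does not show whether such libraries were prepared together, and no label says so. With a replicate block the counts were 20 lower and 3 higher, 26 and 1, and 15 and 3, with 0 calls lost. Precision is limited by 2 libraries per group and was lowest for RAD54B, FANCB and FANCM (SE 0.16, 0.15 and 0.13 with CCF642-34), which had the lowest CPM of the 35 genes.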
